A study of Mus musculus with 12 samples.

Results

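The comparison described here sets 3 libraries labelled ST2-KO Treg against 3 libraries labelled WT Treg, all from mice with leukemia, out of 12 libraries in the series. The libraries were chosen by their labels, and every gene in the count table entered the comparison. In both groups, lethally irradiated C57BL/6 mice received MLL-AF9 leukemic cells that express eGFP, mixed with T cell-depleted bone marrow (BM) cells. They also received WT conventional T cells and regulatory T (Treg) cells, and Treg cells were sorted from the malignant BM on day 14. The transferred Treg cells came from ST2-/- Foxp3-eGFP mice for the ST2-KO label and from Foxp3-eGFP mice for the WT label. Cells of both groups were gated as CD4+CD25+ and eGFP+, so the reporter of the Treg cells and that of the leukemic cells share a color. Mice of the transferred MLL-AF9 models were 8 to 10 weeks old. The sources used here do not say whether the libraries of a group came from separate mice, so the p-values measure the spread between libraries, which may be technical. The other 6 libraries, No Tumor (WT Treg cells without leukemia) and Tbet-KO Treg (with leukemia, sorted without the eGFP gate), were used to estimate the spread and are quoted as levels where they help to read a value.

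ST2, encoded by Il1rl1, is the receptor subunit for the alarmin IL-33 and pairs with the shared subunit encoded by Il1rap. The receptor signals through MyD88, IRAK kinases and TRAF6 to NF-kB. In Treg cells, ST2 marks an activated population found in tissues, which carries GATA3, BATF, KLRG1 and amphiregulin, and IL-33 expands it.

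Depth was 13272943 to 13914504 counts in the libraries labelled ST2-KO and 14340785 to 18042521 counts in WT. The ribosomal RNA precursor Rn45s made up 7.07% to 7.44% of each library labelled ST2-KO and 3.53% to 3.66% of each WT library. No library repeated another of its own group within sampling noise, for which the mean chi-square per gene would be about 1. It was 4.42 to 4.94 between pairs of the libraries labelled ST2-KO and 2.27 to 2.64 between pairs of WT libraries. Pairs across the groups were not compared in this way. In the table's header the 3 columns of the ST2-KO label carry the same sequencing sample numbers as the 3 WT columns, although their counts differ, and what this repeat stands for was not tested.

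Il1rl1 was not lost in the libraries labelled ST2-KO. Its level was 92.7, 86.6 and 90.3 CPM (counts scaled to a common library size) in the libraries labelled ST2-KO, against 123, 127 and 136 CPM in WT. The groups did not overlap, and Il1rl1 was lower by a log2 fold change of -0.52 (SE 0.05, adjusted p = 5.83e-16, edgeR quasi-likelihood test). The group means were 89.9 ± 3.07 and 129 ± 6.51 CPM (SD, n = 3 each), and No Tumor libraries averaged 76.9 CPM. Il1rl1 lies at chr1:40429570-40465415 on the plus strand (mm10, GENCODE M21). Counts were summed over the whole gene, so they cannot show whether single exons are deleted. The libraries are therefore called by their label throughout, and every direction below is that of the label.

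Of 13782 genes tested, 3190 (23.1%) were higher and 3148 (22.8%) were lower in the libraries labelled ST2-KO at an adjusted p below 0.05. The larger changes, with a log2 fold change beyond 1 as well, numbered 367 higher (2.66%) and 333 lower (2.42%). Of the same 13782 genes, the groups did not overlap at 3439 that were higher and 3568 that were lower. A lack of overlap was therefore common and does not by itself set a gene apart. These counts rest on libraries scaled to all RNA (TMM), and the median log2 fold change of all genes was -0.00.

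On this scale the T cell genes were lower as a block, so each change was also measured against T cell RNA, by setting the library size to the summed counts of 13 T cell genes. The median of all genes then moved to 0.98. With this T cell scale, 11727 genes (85.1%) were higher and 82 (0.595%) were lower, and past both thresholds 6424 were higher and 21 lower. Il1rl1 changed direction with the scale, since it was higher by 0.46 (SE 0.05, adjusted p = 9.29e-13, edgeR) relative to the T cell genes. It did not differ relative to the Treg cell identity genes (log2 fold change 0.01, adjusted p = 0.907, edgeR). In bulk samples, fewer cells of a type and less RNA per cell cannot be told apart, and which scale describes the sorted cells was not tested. On the T cell scale, 47 of 51 gene lists had more members higher than lower. The study's migration receptors had as many higher as lower. The general T cell list did too, but its own counts set this scale, so it lies near 0 there by construction. The CD8 T cell list and the study's activation and cytotoxicity list had more lower. The directions of lists below therefore hold for the scale of all RNA unless the T cell scale is named. Counts and medians on the T cell scale are to be read beside the 85.1% and 0.98 of all genes.

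**Figure D1:**
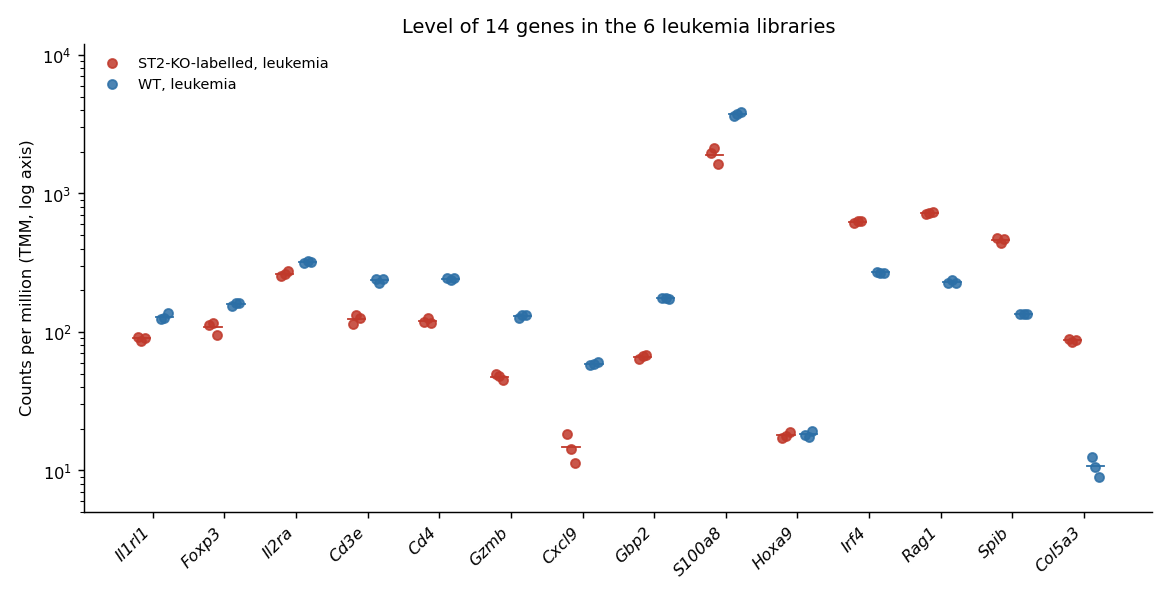
Level of 14 genes in CPM (TMM, log axis) in the 3 libraries labelled ST2-KO (left of each pair) and the 3 WT libraries (right), both with leukemia. Points are libraries and lines are group means; Il1rl1 lies at 86.6 to 92.7 CPM under the ST2-KO label, T cell, cytotoxic and interferon genes sit below WT, Hoxa9 overlaps, and Irf4, Rag1, Spib and Col5a3 sit above WT.

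T cell genes were lower without exception on the scale of all RNA. All 13 tested members of the list were lower, with a median log2 fold change of -1.02, and the groups did not overlap at any of them. Over all 13782 genes tested, the groups did not overlap at 3439 that were higher and 3568 that were lower. Cd4, the coreceptor used in the sort, had 118, 127 and 115 CPM in the libraries labelled ST2-KO, against 247, 238 and 245 CPM in WT (log2 fold change -1.02, SE 0.04). Cd3e, a chain of the T cell receptor complex, had 114, 133 and 127 CPM in the libraries labelled ST2-KO, against 242, 227 and 240 CPM in WT (-0.92, SE 0.04). Each WT library held close to double the level of every library with the ST2-KO label. The chain Cd3g (-1.30), Thy1 (-1.24) and the costimulatory receptor Cd28 (-1.18) were the most reduced members. The summed level of the list was 881 to 924 CPM in the libraries labelled ST2-KO and 1769 to 1812 CPM in WT.

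Treg cell genes were lower too, with a smaller median than the T cell genes. Of 19 tested members of the Treg cell identity list, 18 were lower and none was higher, with a median of -0.51. Foxp3, the factor that defines the lineage, had 112, 117 and 95.2 CPM in the libraries labelled ST2-KO, against 153, 161 and 162 CPM in WT (log2 fold change -0.55, SE 0.05). Il2ra, the CD25 chain used in the sort, fell by 0.28, and Ikzf2, which encodes Helios, fell by 0.44. The receptors Ctla4 (-0.91), Icos (-0.89) and Tigit (-0.78) were the most reduced of those called. On the T cell scale 15 of the 19 were higher and none was lower, with a median of 0.47. Of all genes 85.1% were higher on that scale, with a median of 0.98. The sign of this list therefore depends on the scale. Its median lay below that of all genes. This holds on either scale by construction, since changing the scale shifts all genes by nearly the same amount. On the T cell scale Foxp3 was higher by 0.43 and Il2ra by 0.70, while Ctla4 (0.08), Icos (0.09) and Tigit (0.20) did not pass the test.

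The genes of tissue Treg cells, the population that ST2 marks, were mostly lower. Of 21 tested, 19 were lower, 1 was higher and 1 was not called, with a median of -0.79. The sign of this list turned with the scale, since on the T cell scale 11 were higher and 1 was lower. Its median there was 0.20, beside 0.98 for all genes, of which 85.1% were higher. The list median lay below that of all genes, which again holds on either scale by construction. Batf, a factor of tissue Treg cells, had 13.5, 16.6 and 13.7 CPM in the libraries labelled ST2-KO, against 31.7, 26.7 and 33.4 CPM in WT (log2 fold change -1.07, SE 0.12). Il10, an inhibitory cytokine, was lower by 1.18 log2 units, Pparg by 1.05, Ccr8 by 1.0 and Klrg1 by 0.78. Gata3, which drives Il1rl1 in T cells, was reduced least among these (-0.36). Areg, the gene of amphiregulin, stayed at or below 1.56 CPM in each of the 6 libraries compared. Its call (log2 fold change -1.37, adjusted p = 0.0495, edgeR) was lost when any of ST2-KO replicates 1 and 3 or WT replicates 1 and 3 was left out (adjusted p 0.0589 to 0.234, edgeR). Irf4 was the exception. It had 609, 637 and 630 CPM in the libraries labelled ST2-KO, against 271, 268 and 268 CPM in WT (log2 fold change 1.22, SE 0.03), and No Tumor libraries averaged 816 CPM. Irf4 is also used by B lineage and plasma cells, whose markers were higher in the same libraries, and their part in its level was not tested.

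Genes of the pathway downstream of ST2 were called in both directions on the scale of all RNA. Of 17 genes of IL-33 and ST2 signaling, 8 were lower, 4 were higher and 5 were not called, with a median of -0.05. Of all genes, 22.8% were lower and 23.1% were higher, with a median of -0.00. The share of higher members was therefore near that of all genes. All 17 were higher on the T cell scale, with a median of 0.93, close to the 0.98 of all genes. The receptor genes Il1rl1 (-0.52) and Il1rap (-0.36) and the adaptor Myd88 (-0.76) were lower. Myd88 had 44.8, 41.5 and 39.1 CPM in the libraries labelled ST2-KO, against 75.8, 67.7 and 69.2 CPM in WT. The kinases Irak4, Irak1 and Irak2 fell by 0.30, 0.21 and 0.19. Traf6, the ubiquitin ligase, was higher by 0.48, as were the NF-kB inhibitor Nfkbia (0.42) and Sigirr (0.45), a receptor that dampens IL-1 family signals. The ligand Il33 had 5.63, 5.29 and 2.72 CPM in the libraries labelled ST2-KO, against 2.64, 2.71 and 2.31 CPM in WT. Its call (0.83, adjusted p = 0.0281, edgeR) was lost when any of ST2-KO replicates 1 and 2 or WT replicates 1, 2 and 3 was left out (adjusted p 0.0575 to 0.132, edgeR).

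Il1rl1 sits in a cluster of receptor genes, and its neighbors were reduced more than Il1rl1 itself. All 6 receptor genes of the cluster were lower. Il1rl2, a receptor for IL-36, fell by 1.20, Il1r1, the IL-1 receptor, by 1.12, the decoy receptor Il1r2 by 0.86, and the IL-18 receptor chains Il18r1 and Il18rap by 0.93 and 0.80. Il1r2 overlaps Gm16894 on the other strand, and whether the counting used strand is not given. Il18r1 had 117, 118 and 123 CPM in the libraries labelled ST2-KO, against 222, 226 and 235 CPM in WT. On the T cell scale these 5 neighbors lay between -0.21 and 0.18, and Il1rl1 at 0.46. Among the other 52 tested genes within 5 Mb of the Il1rl1 start, 16 were higher, 17 were lower and 19 were not called, with a median of -0.09. Of all genes tested, 23.1% were higher and 22.8% were lower.

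**Figure D2:**
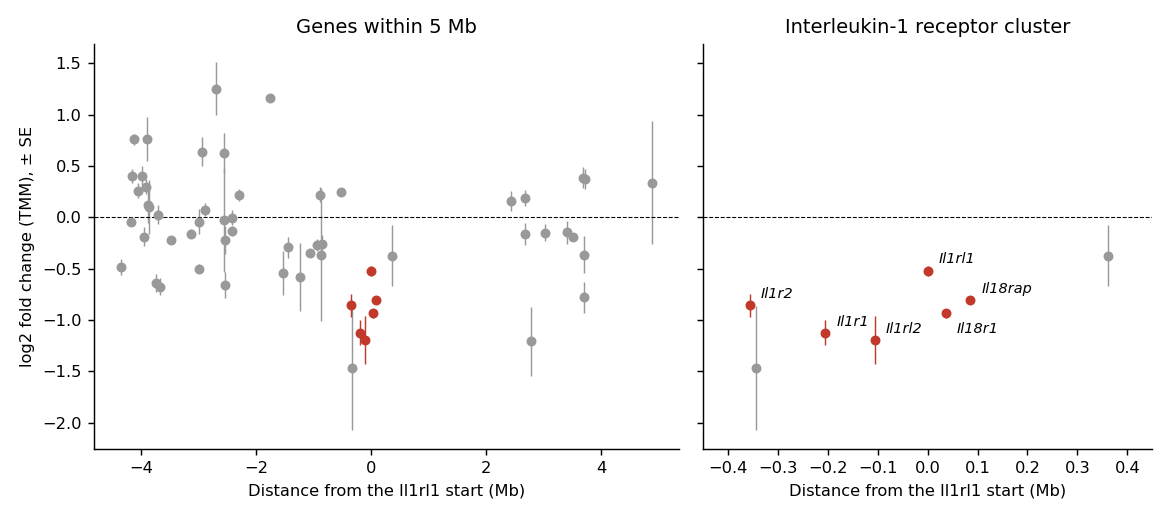
Log2 fold change (TMM scale, ± SE) of each tested gene against the distance of its start from that of Il1rl1 in Mb, libraries labelled ST2-KO over WT, for 58 genes within 5 Mb (left) and for the receptor cluster (right). Red points are the 6 receptor genes, which lie between -1.20 and -0.52; gray points are other genes.

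Cytotoxic genes, which Treg cells and CD8 T cells both use to kill, were lower in 14 of 16 cases and higher in none, with a median of -0.82. Gzmb, granzyme B, had 50, 48 and 45 CPM in the libraries labelled ST2-KO, against 127, 132 and 132 CPM in WT (log2 fold change -1.45, SE 0.06), and No Tumor libraries averaged 34.5 CPM. Gzmk, another granzyme, had 2.21, 0.92 and 3.01 CPM in the libraries labelled ST2-KO, against 12.3, 12 and 10.2 CPM in WT, the largest decrease by the naming rule (-2.48, SE 0.24). Gzma fell by 1.55, the pore-forming Prf1 by 1.21, and the factors Eomes and Tbx21 by 1.13 and 0.95. Relative to the T cell genes, Gzmb (-0.47), Gzma (-0.57), Gzmk (-1.50) and the chemokine Ccl5 (-0.68) were the 4 members still lower, while 6 of the 16 were higher, with a median of 0.17, and Prf1 (-0.23) and Eomes (-0.15) did not pass the test. The CD8 T cell list moved with the cytotoxic list. All 6 members were lower, with a median of -1.70, and Gzmk is in both lists. Cd8a, which a CD4+ gate should leave out, had 1.98, 1.92 and 1.76 CPM in the libraries labelled ST2-KO, against 6.85, 6.85 and 7.60 CPM in WT. Gzmk overlaps Esm1 on the other strand. The CD8 T cell list summed to 108 to 116 CPM in the libraries labelled ST2-KO and 231 to 235 CPM in WT. Little of this came from Cd8a or from Cd8b1, which averaged 0.85 CPM under the ST2-KO label and 3.12 CPM in WT. Themis, another member, averaged 36.3 and 106 CPM in the same order. The part of CD8 T cells in the cytotoxic genes was not tested.

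Helper T cell genes were lower on the scale of all RNA. All 12 Th1 genes were lower (median -0.93, and on the T cell scale 5 higher and 3 lower, median 0.06), among them Ifng (-1.75), which encodes the type 1 cytokine IFN-gamma, and its inducer's receptor Il12rb2 (-1.58). Ifng had 4.57, 6.13 and 5.07 CPM in the libraries labelled ST2-KO, against 16.7, 16.8 and 19.7 CPM in WT. Cd40lg, by which helper T cells signal to B cells, was lower by 1.92 log2 units, and the cytokine Il21 by 2.02. Il21 had few counts, with averages of 0.81 CPM under the ST2-KO label and 3.31 CPM in WT. Of 16 chemokine receptors 12 were lower and 1 was higher, and on the T cell scale 3 were lower and 8 higher, with a median of 0.21. Cxcr6 (-1.31), Ccr2 (-1.27) and Ccr9 (-1.06) were among the members that fell by more than 1 log2 unit. Ccr2, which guides cells to inflamed tissue and is shared with monocytes, had 130.9, 138 and 119 CPM in the libraries labelled ST2-KO, against 307, 316 and 308 CPM in WT. Cxcr4, which retains cells in the BM and is shared by B cell precursors, was the member that was higher, at 345, 351 and 320 CPM in the libraries labelled ST2-KO, against 241, 240 and 241 CPM in WT.

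Genes that respond to interferon were lower. Of 19 tested genes of the interferon gamma response 17 were lower and 1, the feedback inhibitor Socs1 (0.27), was higher, with a median of -0.77. Of 18 genes of the type I response 15 were lower and none was higher, with a median of -0.80. Cxcl9, a chemokine for CXCR3+ T cells, had 18.4, 14.3 and 11.3 CPM in the libraries labelled ST2-KO, against 57.3, 58.5 and 60.6 CPM in WT (log2 fold change -2.0, SE 0.11). Gbp2, a guanylate-binding protein, had 63.3, 67.6 and 68.3 CPM in the libraries labelled ST2-KO, against 177, 176 and 173 CPM in WT (-1.40, SE 0.05). No Tumor libraries averaged 12.2 CPM of Cxcl9 and 78.8 CPM of Gbp2. In the type I list, Ifit1 (-1.23), Isg20 (-1.19) and Rsad2 (-1.11) were the most reduced. On the T cell scale 5 of the 19 interferon gamma genes were lower and 10 higher (median 0.21), and none of the type I genes was lower and 8 were higher (median 0.19). Cxcl9 (-1.02) and Gbp2 (-0.42) were lower on both scales. Genes of the Gbp family resemble each other closely, so reads may have been divided among them.

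Many of these genes hold an interferon-stimulated response element in the promoter, the site of STAT and IRF factors. The letters GAAA, any 2 bases, GAAA were searched on both strands in RefSeq promoters (GRCm38.p6) that reach from 250 bases before to 50 bases after the gene start, which were matched for 10325 tested genes. The element was present at 3.88% of these, at 9 of 14 genes of the interferon gamma list and at 8 of 14 of the type I list. Among genes past both thresholds it was present at 12.6% of the 231 lower genes and at 2.94% of the 238 higher genes. The promoters of 4 listed genes are shown because their elements sit close to the start. Irgm1, an immunity-related GTPase that fell by 0.77 log2 units, had 91.0, 78.1 and 94.5 CPM in the libraries labelled ST2-KO, against 150, 151 and 151 CPM in WT. Capitals mark the element or its reverse complement, and overlapping copies run together. The sequences are 5′ to 3′ on the gene's strand.
Gbp2 (chr3:142620413-142620712, plus strand): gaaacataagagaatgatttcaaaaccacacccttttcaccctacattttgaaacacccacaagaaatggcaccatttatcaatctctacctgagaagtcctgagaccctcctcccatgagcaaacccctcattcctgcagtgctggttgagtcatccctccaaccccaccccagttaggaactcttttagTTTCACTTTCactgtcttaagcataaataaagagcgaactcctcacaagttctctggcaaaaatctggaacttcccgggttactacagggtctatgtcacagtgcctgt
Irgm1 (chr11:48871371-48871670, minus strand): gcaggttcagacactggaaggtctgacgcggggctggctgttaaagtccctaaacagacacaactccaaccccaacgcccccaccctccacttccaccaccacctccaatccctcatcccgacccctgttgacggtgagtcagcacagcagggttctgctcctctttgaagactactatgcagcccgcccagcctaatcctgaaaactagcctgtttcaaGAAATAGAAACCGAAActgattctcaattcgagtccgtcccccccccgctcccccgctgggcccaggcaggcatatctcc
Ifit1 (chr19:34640639-34640938, plus strand): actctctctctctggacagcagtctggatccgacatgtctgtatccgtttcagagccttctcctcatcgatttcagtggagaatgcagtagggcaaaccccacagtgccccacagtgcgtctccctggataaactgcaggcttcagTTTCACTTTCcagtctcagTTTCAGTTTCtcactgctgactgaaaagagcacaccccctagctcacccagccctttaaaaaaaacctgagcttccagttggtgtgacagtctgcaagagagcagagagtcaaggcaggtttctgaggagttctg
Isg15 (chr4:156200769-156201068, minus strand): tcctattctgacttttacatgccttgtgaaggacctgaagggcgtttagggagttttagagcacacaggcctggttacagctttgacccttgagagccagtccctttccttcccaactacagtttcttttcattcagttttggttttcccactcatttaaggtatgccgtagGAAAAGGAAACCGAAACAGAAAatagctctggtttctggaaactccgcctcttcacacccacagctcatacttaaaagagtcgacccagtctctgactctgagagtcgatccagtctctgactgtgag
In Gbp2 the element starts 59 bases before the gene start. Irgm1 holds 2 overlapping copies and Ifit1 holds 2 separate ones, and Isg15, a ubiquitin-like modifier, holds 3 overlapping copies. A match of letters is a description and not a measured binding site.

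B cell identity genes had the highest median of the lists tested. Of 14 B cell identity genes 13 were higher, all 13 past both thresholds, and none was lower, with a median of 1.33. Spib, a transcription factor of B cells, had 480.5, 442 and 470.2 CPM in the libraries labelled ST2-KO, against 134, 134 and 135 CPM in WT (log2 fold change 1.79, SE 0.03). Pax5 (1.34), the factor that holds B cell identity, and the antigen receptor chain Cd79b (1.32) rose with it, and Bank1 (-0.19) was not called. The summed level of the list was 3556 to 3611 CPM in the libraries labelled ST2-KO and 1342 to 1347 CPM in WT. No Tumor libraries averaged 579 CPM of Spib and Tbet-KO Treg libraries 12.9 CPM, so the level under the ST2-KO label lay between those of No Tumor and WT. A CD4+ gate should leave these cells out, and their share of each sort was not measured.

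Within the B lineage, the increase was not even. Of 15 early B lineage genes 11 were higher and 1 was lower, with a median of 0.44. Rag1, which cuts the antigen receptor genes, had 707, 724 and 733 CPM in the libraries labelled ST2-KO, against 225, 239 and 227 CPM in WT (log2 fold change 1.65, SE 0.03), and Rag2 (1.08) and Vpreb3 (1.55) were higher with it. Igll1 (0.38) and Vpreb1 (0.44), the surrogate light chain of pro-B and large pre-B cells, changed less. Dntt, the polymerase of pro-B cells, had 44.6, 39.9 and 38 CPM in the libraries labelled ST2-KO, against 40.8, 35.4 and 36.1 CPM in WT, and the groups overlapped (0.12, adjusted p = 0.239, edgeR). Among genes of naive lymphocytes, Bach2 (1.55) and Id3 (1.24), which B cell precursors also use, were higher and Tcf7 (-1.0), a T cell factor, was lower. Mature B cell genes were higher in 6 of 11 cases and lower in 2, and plasma cell genes were higher in 7 of 10 and lower in 3. Rag1 overlaps B230118H07Rik on the same strand, so some reads may belong to either.

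**Figure D3:**
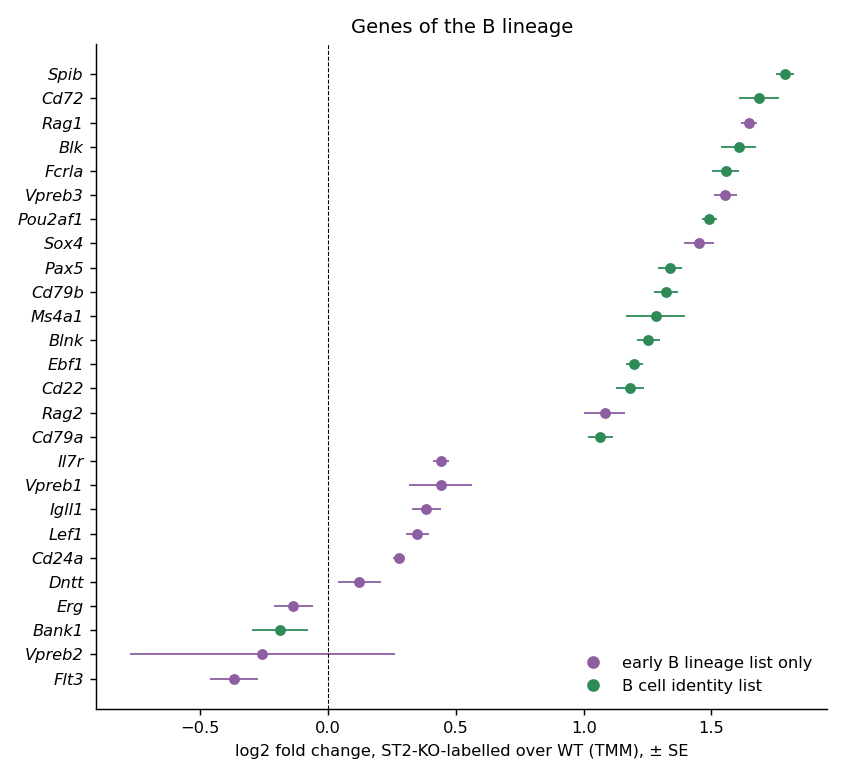
Log2 fold change (TMM scale, ± SE) of genes of the early B lineage and B cell identity lists, libraries labelled ST2-KO over WT, ordered by value. The plotted genes of B cell identity other than Bank1 lie above 1, while Igll1, Vpreb1 and Dntt lie between 0.12 and 0.44.

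The E box CACCTG, a site of E proteins that act in both T and B lymphocyte development, was found in promoters of both lists that moved in opposite directions. It was present at 20.8% of all 10325 promoters, at 7 of 8 T cell genes and at 6 of 14 early B lineage genes. It was present at 30.3% of genes higher past both thresholds and at 28.6% of those lower. Lck, a kinase of the T cell receptor that was lower (-0.86), and Rag1 are shown as a pair, with the E box in capitals. Another RefSeq promoter of Lck, at chr4:129573592-129573891, is not shown. Its E box starts 23 bases after the gene start.
Lck (chr4:129558323-129558622, minus strand): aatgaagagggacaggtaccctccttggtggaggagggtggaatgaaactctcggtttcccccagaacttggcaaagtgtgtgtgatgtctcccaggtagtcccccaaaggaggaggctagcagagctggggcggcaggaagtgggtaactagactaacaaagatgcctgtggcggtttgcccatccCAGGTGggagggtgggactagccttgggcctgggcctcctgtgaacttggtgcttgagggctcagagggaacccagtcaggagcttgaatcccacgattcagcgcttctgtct
Rag1 (chr2:101649483-101649782, minus strand): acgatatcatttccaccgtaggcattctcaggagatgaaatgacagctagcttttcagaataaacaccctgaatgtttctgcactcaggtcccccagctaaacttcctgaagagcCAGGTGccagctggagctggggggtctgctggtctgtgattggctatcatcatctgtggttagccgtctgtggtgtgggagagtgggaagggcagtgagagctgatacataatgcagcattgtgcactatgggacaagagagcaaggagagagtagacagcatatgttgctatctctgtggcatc
Other motifs were searched in the same way. The letters AGATAA of GATA factors were present at 8.15% of all promoters, at 19.5% of the lower genes and 6.3% of the higher genes. TTC, any 3 bases, GAA, the gamma-activated site, was present at 8.5%, 9.96% and 6.3%, and TCCC, any 2 bases, GGGA, the site of EBF1, at 1.27%, 1.3% and 2.94%, in the same order. The motifs were chosen with the direction of the lists known.

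The genes with the largest increases by the naming rule were led by Col5a3, a collagen chain, with 89.3, 84.0 and 88.1 CPM in the libraries labelled ST2-KO, against 12.6, 10.6 and 9.03 CPM in WT (log2 fold change 3.01, SE 0.09). Fmn2 (2.46), Klhl14 (2.34), Gm2848 (2.30), Reln (2.27), Fam129c (2.09) and Cacna1e (2.03) followed, and then Scn4a, Srpk3, Spns3, Rapgefl1, Rbm24, Tmem132e, Ly6d and Lynx1 at 1.97 to 1.81. No Tumor libraries averaged 112 CPM of Col5a3, 442 CPM of Cacna1e and 93.3 CPM of Ly6d, a marker of B cell precursors, and Tbet-KO Treg libraries 4.83, 16.8 and 3.04 CPM. Scn4a lies next to Cd79b on chromosome 11. The largest decreases after Gzmk and Cxcl9 were those of Cd40lg, the complement factor Cfb (-1.79), Ifng, Ccl5 (-1.67), Cd96 (-1.65), Il12rb2, the basophil protease Prss34 (-1.56), Ifit1bl1 (-1.56), Gzma, Themis (-1.55), Aldh1a1 (-1.55), Hspa1b (-1.54) and Phf11b (-1.53). Hspa1b and its near-identical copy Hspa1a (-1.83) may share reads.

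Markers of other marrow cells were present in every library of this sort. Per length, in deposited FPKM, S100a8, a calcium-binding protein of neutrophils, averaged 4864 in the libraries labelled ST2-KO and 9553 in WT, against 27.5 and 40.4 for Foxp3. Of 16 neutrophil genes 15 were lower and none was higher (median -0.57), of 17 monocyte and macrophage genes 16 were lower (median -0.53), and of 10 erythroid genes 8 were lower and 1 was higher (median -0.81). S100a8 had 1948, 2139 and 1641 CPM in the libraries labelled ST2-KO, against 3610.2, 3769 and 3861 CPM in WT. Alas2, the first enzyme of heme synthesis in red cells, fell by 1.33. Of 15 basophil, mast cell and eosinophil genes 11 were lower (median -0.78), and these cells can also express Il1rl1. Their summed level was 585 to 618 CPM in the libraries labelled ST2-KO and 701 to 713 CPM in WT, and their part in the level of Il1rl1 was not tested. No defining marker that was tested was at 0 in any of the 6 libraries.

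Targets of the MLL fusion were mostly not called on the scale of all RNA. Of 12 tested 2 were higher, 1 was lower and 9 were not called, with a median of 0.09. All 12 were higher on the T cell scale, with a median of 1.07, beside 0.98 for all genes. Some members do not separate leukemic from other marrow cells, since Jmjd1c averaged 471 CPM in the libraries labelled ST2-KO, 460 CPM in WT and 456 CPM in No Tumor. Hoxa9 had 17.3, 17.7 and 19.0 CPM in the libraries labelled ST2-KO, against 18, 17.6 and 19.3 CPM in WT (log2 fold change -0.02, SE 0.12), and the groups overlapped. No Tumor libraries averaged 1.22 CPM, below every leukemia library. Hoxa9 is 1 of the 12, others of which were called in either direction, and the share of leukemic cells in each sort was not measured.

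Cell cycle genes were slightly higher. Of 16 proliferation genes 12 were higher and 1 was lower (median 0.30), led by Cenpf (0.47) and Kif11 (0.42), both of which act in mitosis, while Mki67 (-0.01) was not called. Of 15 replication-dependent histone genes 13 were higher (median 0.34), with Hist1h1a at 0.97. These genes resemble each other, so reads may be divided among them. Glycolysis and hypoxia genes were lower in 15 of 18 cases (median -0.37), among them Gapdh (-0.84) and Hif1a (-0.66). Cytosolic ribosomal protein genes were lower in 14 of 20 cases, by little (median -0.14). Of 16 immediate early genes 5 were higher, 8 were lower and 3 were not called (median -0.24). Fosb (0.92), Jun (0.91) and Jund (0.77) were among the higher members. Nr4a2 (-0.58), Nr4a3 (-0.47) and Egr2 (-0.46) were among the lower ones.

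The remaining lists are given on the scale of all RNA. Lower members outnumbered higher ones among inhibitory receptors (7 lower and 0 higher of 10, median -0.66), costimulatory TNF receptors (7 and 0 of 9, -0.64), common gamma chain receptors (10 and 1 of 12, -0.31), integrins, selectin and egress receptors (11 and 1 of 15, -0.42), MHC class I (9 and 1 of 12, -0.19), MHC class II (6 and 1 of 10, -0.14) and NK and innate lymphoid cells (8 and 1 of 11, -0.55). The same held for stem and progenitor cells (10 and 1 of 16, -0.32), conventional dendritic cells (4 and 0 of 10, -0.27), Tfh (4 and 0 of 8, -0.45), Th2 (3 and 1 of 7, -0.36) and cholesterol synthesis (7 and 0 of 18, -0.20). Each of these shares of lower members exceeded the 22.8% of all genes that were lower. Medians between -0.24 and 0.34 were seen in plasmacytoid dendritic cells (3 lower and 3 higher of 12), stroma and endothelium (3 and 4 of 13), megakaryocytes (1 and 0 of 9), DNA replication (3 and 10 of 17), ribosome biogenesis (3 and 2 of 16), the nuclear respiratory chain (7 and 3 of 17), the unfolded protein response (6 and 3 of 14), heat shock (4 and 1 of 8), p53 and apoptosis (3 and 4 of 14) and sex-linked genes (0 and 1 of 3). Precursor factors and activation markers were lower in 9 of 9 cases, and so were 9 of 9 genes of activation and cytotoxicity. Both of these lists come from what the study shows of these samples, so they are not independent evidence of their direction. Among 9 migration receptors, a list taken from flow cytometry of other samples, 6 were lower and 1 was higher.

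**Figure D4:**
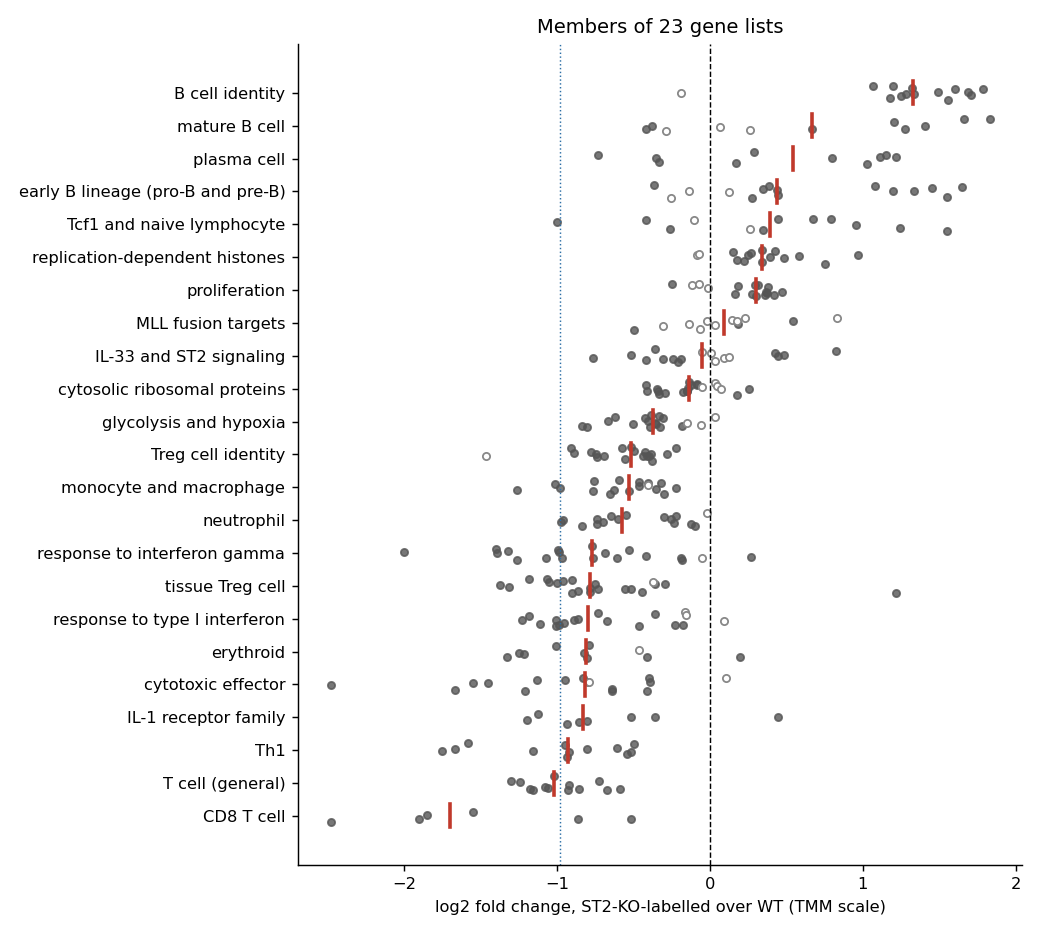
Log2 fold change (TMM scale, libraries labelled ST2-KO over WT) of each tested member of 23 gene lists. Filled points passed an adjusted p of 0.05, open points did not, red bars are list medians, the dashed line is the median of all genes (-0.00) and the dotted line, at -0.98, is where the T cell scale has its 0; B cell lists lie on the right and T cell, cytotoxic and interferon lists on the left.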

How the data were processed

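Bulk RNA of sorted Treg cells was measured in 12 libraries of 4 groups. Per the labels, RNA was isolated from lysates of sonicated nuclei. Per the paper's methods and reporting summary, the authors removed ribosomal RNA and used FastQC 0.11.5, STAR 2.5 (mm10), NGSUtils 0.5.9 and featureCounts 1.5.1 to obtain gene counts; strandedness is not given in the sources used here. The deposited counts are raw. The deposited log2 values are log2 FPKM made by the authors, and were used for an alternative test and for levels between genes.

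The test (edgeR 4.0.16 under R 4.3.3) started from 14259 genes: filterByExpr, TMM, 1 quasi-likelihood fit of all 12 libraries and Benjamini-Hochberg adjustment over 13782 genes. SE is the log2 fold change over the square root of F. The common dispersion was 0.00305. The fit was run on counts simulated from its own dispersions, with a small set of genes changed, as many up as down. No shift of cell composition was simulated, so this run cannot test the choice of scale.

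The comparison, the 52 gene lists (51 with a tested gene), the T cell scale and the rule for naming genes were chosen with earlier results of these data known. Named were Il1rl1, Rn45s, genes the study names, the 15 largest changes in each direction at a mean of at least 10 CPM, up to 4 members of each list, and defining markers. Other list members were named after their values were seen. Alternatives used DESeq2 1.42.0 and limma 3.58.1. Some genes are counted in their lists but not reported here by name.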

Additional observations from a re-analysis of the deposited data

How the results depend on the processing

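Il1rl1 was lower under every alternative on the scale of all RNA, and its log2 fold change was -0.55 to -0.48 when 1 library was left out. On the T cell scale it was 0.42 to 0.50 with 1 library left out. With the Treg cell identity list as the scale it was 0.00711 (adjusted p = 0.907, edgeR), with a median of all genes of 0.52 and 450 genes lower, and past both thresholds 1620 higher and 75 lower. Past both thresholds, a mean of at least 5 CPM, which tests fewer genes, gave 205 higher and 145 lower, and a log2 fold change beyond 0.5 gave 1172 higher and 1226 lower. The T cell scale with only the 6 libraries compared gave 11 lower past both thresholds, and leaving out 1 library gave 16 to 45, with 38, 45 and 32 without ST2-KO replicates 1, 2 and 3; the cause was not tested. Leaving out 1 library gave 2810 to 3041 higher and 2795 to 3086 lower genes, and past both thresholds 343 to 383 and 296 to 425. On the T cell scale it gave 11394 to 11654 higher and 65 to 104 lower genes, and 6112 to 6588 higher past both. Within 2 Mb of Il1rl1, 16.7% of genes were higher and 66.7% lower, against 27.6% and 39.7% within 5 Mb. Of all genes tested, 23.1% were higher and 22.8% lower. The 6 receptor genes of the cluster, all lower, count in both windows and weigh more in the smaller one, which holds fewer genes.

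Same-numbered libraries showed no shared deviation across genes (correlations -0.02 to -0.00). This cannot exclude that same-numbered libraries share an origin or a preparation. With the replicate block, 3152 genes were higher and 3154 lower, Il1rl1 was at -0.52, and Fcer2a alone among 237 named genes lost its call (1.61, adjusted p = 0.064, edgeR). With 1 library left out, the median of ribosome biogenesis ranged from -0.0518 to 0.00801, above 0 only without ST2-KO replicate 2, and that of the nuclear respiratory chain from -0.0121, the value without ST2-KO replicate 3, to 0.0245. No named gene reversed under any alternative on the scale of all RNA. With 3 libraries a group, small changes of genes with few counts are the least certain.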
